A study of Mus musculus with 18 samples.

Results

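Fluvastatin was given after hydrogen peroxide to primary mouse testis cultures in which Prdx1 had been knocked down, and its effect on the transcriptome was measured here across all expressed genes. Of the 18 libraries of the series, 6 make up this comparison. They were chosen by their names in the count table: 3 libraries siprdx1+H2O2+FV against 3 libraries siprdx1+H2O2. The cells were labelled primary mouse Leydig cells. All 6 cultures received siprdx1, a small interfering RNA against Prdx1, and then 200 µM H2O2 for 30 min. The siprdx1+H2O2+FV cultures next had 5 µM fluvastatin (FV) for 6 h, and the siprdx1+H2O2 cultures had 0.1% DMSO for 6 h. Whether the fluvastatin was itself dissolved in DMSO is not recorded, so fluvastatin and a difference in vehicle cannot be told apart. A second pair of groups, siNC+H2O2 and siNC+H2O2+FV, had a control siRNA and otherwise the same treatment; it is used below to ask where the fluvastatin effect depended on the knockdown. The remaining groups, siNC and siprdx1 without peroxide, entered the model only to estimate the spread. No group had fluvastatin without peroxide. The labels call the replicates biological without saying that they came from separate animals, so the p-values measure the spread between these samples.

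Fluvastatin is a statin, a drug that blocks the synthesis of mevalonate. Mevalonate feeds cholesterol synthesis and also the isoprenoid chains that anchor small GTPases to membranes. When sterols fall in a cell, SREBP-2 raises the genes for the mevalonate and cholesterol enzymes and for cholesterol uptake. Prdx1 encodes peroxiredoxin 1, an abundant thiol enzyme that reduces H2O2. Leydig cells, the interstitial cells of the testis, make testosterone from cholesterol. Cells that meet a stimulus or a stress switch on immediate early genes, such as FOS, EGR and NR4A transcription factors, which are usually transient.

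The 6 libraries held 16773112 to 23898435 counts assigned to genes, and the expression values below are counts per 1000000 (CPM) scaled by edgeR's TMM factors. Prdx1 had 576, 485 and 511 CPM in the siprdx1+H2O2 libraries 1, 2 and 3, and 560, 519 and 547 CPM in the siprdx1+H2O2+FV libraries. The control siRNA libraries with peroxide had 1460 to 1690 CPM, so all 6 knockdown libraries lay well under all 6 control libraries. Between the knockdown groups Prdx1 overlapped, with a log2 fold change of 0.05 ± 0.06 (SE; edgeR adjusted p = 0.642), or -0.05 with library size alone as the scaling. Some of its reads may belong to the near-identical pseudogenes Gm7204 and Gm21399. The markers met the Leydig label only in part. Star had 171 to 469 CPM, Cyp11a1 619 to 705, Nr5a1 65.3 to 103, Hsd3b1 60.1 to 68.5 and Insl3 31.1 to 84.3. Hsd3b6 had 12.6 to 16 CPM and Lhcgr 4.11 to 5.86 CPM. In contrast Cyp17a1 and Hsd17b3, enzymes of the later steps to testosterone, had 4 and 5 counts in all 6 libraries together. Lyz2 of macrophages had 5342 to 5898 CPM and Col1a1 of fibroblasts 3051 to 4015 CPM. In such mixed bulk cultures, fewer cells of a type and less RNA per cell cannot be told apart.

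Fluvastatin changed 3876 of 16432 tested genes in the knockdown cultures (23.6%; edgeR quasi-likelihood test, Benjamini-Hochberg adjusted p below 0.05), of which 2066 (12.6%) were higher and 1810 (11%) lower. The rises were the larger: 521 genes (3.17%) rose by at least 1 log2 unit and 160 (0.974%) fell by as much. Rises of at least 4 log2 units were seen for 25 genes, and falls of at least 2 for 13. Most changes were small, 2187 of the 3876 (56.4%) being under 0.5 log2 units. Of the 521 large rises, 225 (43.2%) started from under 1 CPM, and of the 160 large falls, 71 ended under 1 CPM. With library size alone in place of TMM, 28.7% of the called genes were higher instead of 53.3%, and the median of all genes shifted by -0.10 on the log2 scale. Counts of list members below are to be read beside the 12.6% and 11% of all genes.

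On the TMM scale the summed CPM was uneven too. The genes that rose gained 89696 CPM together, and those that fell lost 20623 CPM. The TMM factors were 1.02 to 1.03 in the siprdx1+H2O2 libraries and 0.946 to 0.959 in the siprdx1+H2O2+FV libraries. TMM-scaled totals therefore differ between the groups, and the imbalance depends on the scaling and is no measure of total RNA. Thbs1, which encodes the matrix protein thrombospondin 1, was among the largest gains and went from 606 to 621 CPM to 3299 to 3428 CPM. Errfi1, a feedback inhibitor of the EGF receptor, had 279, 251 and 260 CPM without and 2545, 2546 and 2597 CPM with fluvastatin. Neither gene overlapped between the groups, as was so for 17.7% of all tested genes in the rising and 17.7% in the falling direction. On the other side Txnip, which binds and inhibits thioredoxin, lost the most, from 1833, 1727 and 1815 CPM to 1040, 973 and 1043 CPM.

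**Figure D1:**
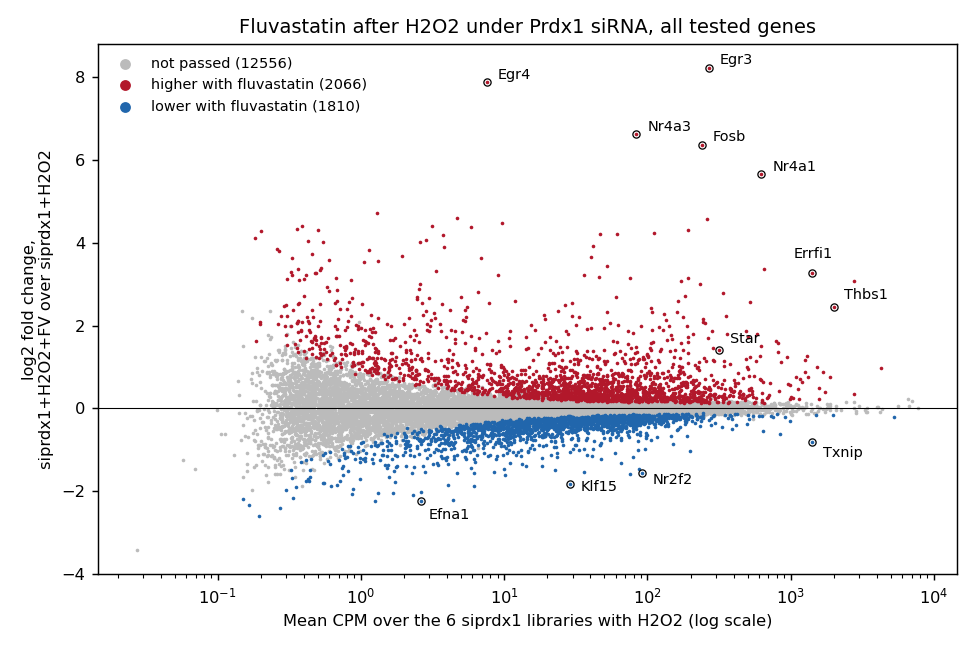
Each point is 1 of 16432 genes, with its mean CPM over the 6 libraries on a log axis and its log2 fold change with fluvastatin on the other axis. The 2066 genes that rose reach a log2 fold change of 8.22 at Egr3, while the 1810 genes that fell lie closer to 0.

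In the pathway that the drug blocks, of 9 tested genes of the mevalonate enzymes 4 rose and 0 fell, against 12.6% and 11% of all genes. Idi1, isopentenyl diphosphate isomerase, had 29.6, 17.9 and 21.3 CPM in the siprdx1+H2O2 libraries and 34, 30 and 32.8 CPM in the siprdx1+H2O2+FV libraries (log2 fold change 0.50 ± 0.14, adjusted p = 0.0147). Hmgcs1, HMG-CoA synthase, had 492, 383 and 428 CPM without and 524, 499 and 543 CPM with fluvastatin (0.27 ± 0.08). Pmvk, phosphomevalonate kinase, rose from 28.2, 30.1 and 29.6 CPM to 36.2, 36.5 and 34.6 CPM (0.29 ± 0.06). None of the 3 overlapped between the groups, as was so for 17.7% of all tested genes in the rising direction. The median log2 fold change of the 9 was 0.16, beside -0.01 over all genes. Leaving out 1 library at a time ended the call of Hmgcs1 (adjusted p up to 0.0976) and of Idi1 (up to 0.0759), both highest without siprdx1+H2O2 library 2, where 2 of the 9 were still called.

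From squalene to cholesterol, 4 of 12 genes rose (33.3%) and 0 fell, beside 12.6% and 11% of all genes, with a median of 0.10. With library size alone 2 rose and the median was just under 0. Hsd17b7, a sterol 3-ketoreductase, had 79.3, 70.4 and 73 CPM without and 130, 133 and 139 CPM with fluvastatin, a rise of 0.85 ± 0.06 (adjusted p = 2.45e-10). Cyp51, the lanosterol demethylase, rose by 0.35 ± 0.05, Msmo1, the sterol methyl oxidase, by 0.27 ± 0.07 and Lss, lanosterol synthase, by 0.14 ± 0.05. Among 13 genes of sterol sensing and uptake 3 rose (23.1%) and 0 fell (median 0.02), against 4 falls and a median of -0.08 with library size alone. Insig1, which holds SREBP in the endoplasmic reticulum, went from 260, 226 and 229 CPM to 362, 364 and 375 CPM (0.62 ± 0.06, adjusted p = 8.12e-09), and Stard4, a cholesterol carrier, rose by 0.36 ± 0.07. Of 10 LXR and cholesterol efflux genes 2 rose (20%), Plin2 (0.33 ± 0.05) and Soat1 (0.30 ± 0.05). A further 3 fell (30%), Nr1h3 (-0.32 ± 0.12), Scd2 (-0.29 ± 0.04) and Mylip (-0.26 ± 0.08). The median was -0.03, and with library size alone 5 fell. When 1 library at a time was left out, Nr1h3 lost its call without each of the 6 (adjusted p up to 0.138), Lss in 5 of 6 cases (up to 0.115, without siprdx1+H2O2+FV library 1) and Mylip in 4 (up to 0.115, without siprdx1+H2O2+FV library 3).

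The enzymes that attach isoprenoids were not among the changed genes. Of 10 tested subunits and CAAX-processing enzymes 0 passed, beside 23.6% of all genes. Their log2 fold changes ran from -0.16 to 0.30, with a median of 0.06 (below 0 with library size alone). A list of small GTPases, many of them substrates of these enzymes, and their inhibitors moved both ways. Of 23 genes 5 rose (21.7%) and 3 fell (13%), beside 12.6% and 11% of all genes (median 0.05, below 0 with library size alone). Rhob, a short-lived inducible GTPase, had 204, 229 and 208 CPM without and 455, 494 and 469 CPM with fluvastatin (1.15 ± 0.07, adjusted p = 8.62e-12). Rnd1, an atypical member that opposes actomyosin contraction, rose from 7.28, 10.6 and 8.39 CPM to 51.4, 54.9 and 46.7 CPM (2.54 ± 0.11). Both were free of overlap, as were 17.7% of all tested genes in the rising direction. Rhov (1.04 ± 0.28), Rhoj (0.49 ± 0.05) and Rhoc (0.17 ± 0.06) rose as well, and Rhobtb2 (-0.65 ± 0.11), Rhod (-0.36 ± 0.07) and Rhoq (-0.18 ± 0.07) fell. Of the 6 omissions of 1 library, 4 ended the call of Rhoc (adjusted p up to 0.154, without siprdx1+H2O2+FV library 1), 1 that of Rhov (0.0776, without siprdx1+H2O2+FV library 2) and 4 that of Rhoq (up to 0.304, without siprdx1+H2O2 library 1).

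The immediate early transcription factors held the largest changes of the comparison. All 9 tested genes of the EGR, NAB and NR4A families rose, with a median log2 fold change of 4.30. The list was chosen with earlier results of these data known, so its count and median are descriptions. Egr3, a zinc finger factor, had 1.80, 1.83 and 1.75 CPM in the siprdx1+H2O2 libraries and 525, 543 and 544 CPM in the siprdx1+H2O2+FV libraries. Its log2 fold change of 8.22 ± 0.09 (adjusted p = 1.69e-25) was the largest among genes averaging at least 1 CPM. Egr2, its close relative, had 17.3, 18.9 and 19.7 CPM without and 370, 372 and 362 CPM with the drug (4.30 ± 0.07). For neither did the groups overlap, as for 17.7% of all tested genes in the rising direction. Egr4 was almost silent without fluvastatin, at 2, 0 and 2 counts, and had 912 counts with it. The ratio was 261 (95% interval 101 to 959, counting error only). Its place among the tested genes rests on groups where it was higher. Egr1 started high, at 369, 403 and 373 CPM, and reached 1209, 1245 and 1118 CPM (1.64 ± 0.06).

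The orphan nuclear receptors of the NR4A family moved with the EGR genes. Nr4a1, also known as NUR77, had 21.9, 26.4 and 24.4 CPM without and 1219, 1294 and 1161 CPM with fluvastatin (5.65 ± 0.08, adjusted p = 1.46e-23). Nr4a3 rose by 6.62 ± 0.13, to 162, 166 and 169 CPM, and Nr4a2 by 1.33 ± 0.26 at no more than 5.27 CPM. The corepressors that bind EGR proteins rose less, Nab2, which overlaps a gene on the other strand, by 0.94 ± 0.09 and Nab1 by 0.28 ± 0.07 (adjusted p = 0.0519 without siprdx1+H2O2 library 2). Serum response factor binds CArG boxes in the promoters of several such genes. In RefSeq's table of promoters (GRCm38.p6), windows of 250 bases before a gene's start were searched on both strands. The CArG box was searched only in its exact form, CC, A or T bases alone, then GG, so boxes with a mismatch were missed. It was found in 1.47% of 32851 windows. Of the 7 genes of this list matched to the table, Egr2 was the only 1 with a match. It lies 72 bases before the start, in the window chr10:67537316-67537565 (+ strand), and capitals mark the CArG box.
Egr2: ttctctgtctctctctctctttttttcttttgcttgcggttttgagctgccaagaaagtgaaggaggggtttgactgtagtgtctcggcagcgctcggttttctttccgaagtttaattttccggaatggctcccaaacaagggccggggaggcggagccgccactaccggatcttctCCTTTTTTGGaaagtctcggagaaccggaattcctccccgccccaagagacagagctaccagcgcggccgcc

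AP-1 factors, the dimers of FOS, JUN, ATF and MAF proteins, rose in 12 of 14 tested genes and fell in 0 (median 0.90). All 7 FOS and JUN genes were among the 12. A CArG box lay in the windows of 0 of the 13 genes matched to the promoter table. Fosb went from 5.19, 5.86 and 5.99 CPM to 461, 495 and 462 CPM (6.37 ± 0.09, adjusted p = 7.83e-24). Fosl1 rose by 4.22 ± 0.10, although it overlaps Ccdc85b on the other strand and no source used here states whether counting used strand. Jun rose from 168, 188 and 191 CPM to 397, 412 and 402 CPM (1.15 ± 0.07). Fos had 111, 120 and 117 CPM without and 223, 221 and 218 CPM with fluvastatin (0.93 ± 0.06, adjusted p = 9.38e-11). Junb (1.47 ± 0.09), Fosl2 (0.80 ± 0.04) and Jund (0.64 ± 0.08, also with an antisense overlap) rose too. Among the partners Atf3, a stress-induced repressor and activator, rose by 3.09 ± 0.07 to 305, 302 and 309 CPM, and Maff, a small MAF protein, by 3.00 ± 0.07.

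Of 18 other early response genes 17 rose, with a median of 1.51. A CArG box lay in the windows of 1 of the 10 genes matched to the promoter table. Arc, best known as a synaptic activity gene, had 19.3, 21.5 and 21.7 CPM without and 496, 525 and 473 CPM with fluvastatin (4.58 ± 0.09). Btg2, an antiproliferative gene, rose from 147, 150 and 156 CPM to 887, 903 and 890 CPM (2.57 ± 0.04, adjusted p = 2.57e-22). Csrnp1 rose by 3.16 ± 0.08 and Ier5 by 1.99 ± 0.05. The exception was Rgs2, a regulator of G-protein signalling named after its values were seen, which fell from 52.8, 55.8 and 57.2 CPM to 28.4, 26.2 and 29.3 CPM (-0.99 ± 0.06). Npas4, another activity-dependent factor, rose from 0.449, 0.955 and 1.02 CPM to 19.7, 18.9 and 16.6 CPM. Noct, a circadian phosphatase with a near-identical copy in Gm42860, rose by 4.24 ± 0.08 to 209 to 213 CPM.

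**Figure D2:**
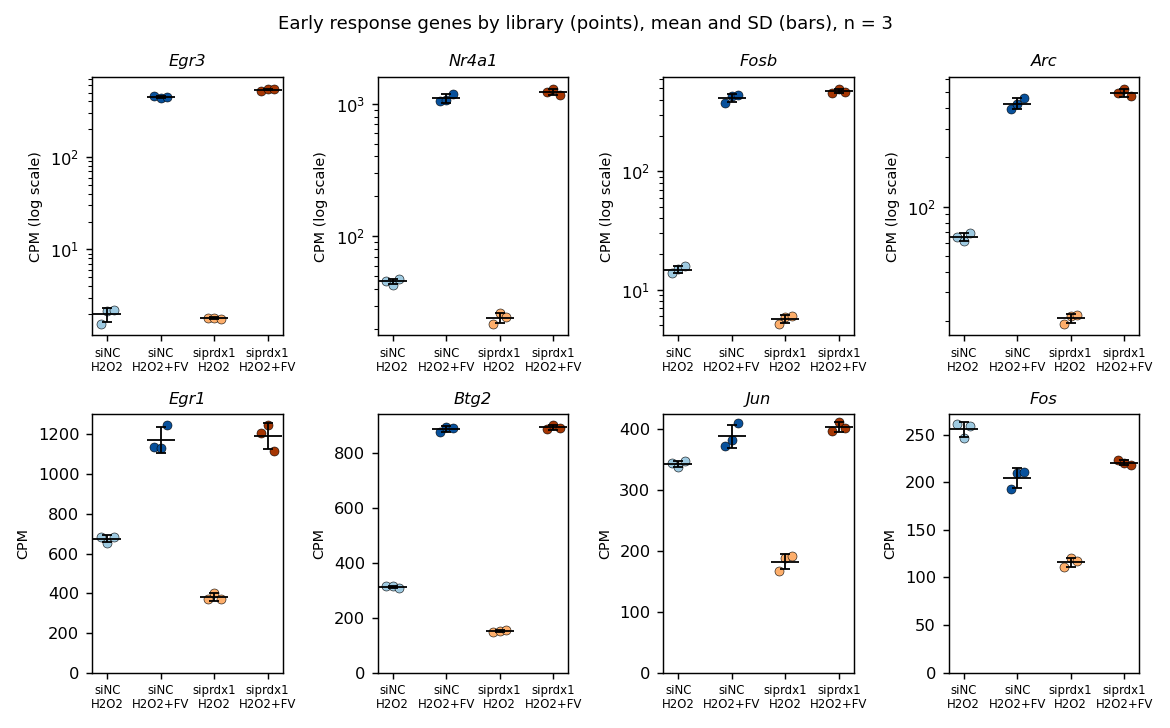
CPM of 8 early response genes in each of 3 libraries for the groups siNC+H2O2, siNC+H2O2+FV, siprdx1+H2O2 and siprdx1+H2O2+FV; lines give the mean and bars the SD, and Egr3, Nr4a1, Fosb and Arc have log axes. With fluvastatin the siprdx1 libraries lie above those without it in every panel, whereas for Fos the siNC libraries go from 246 to 261 CPM down to 193 to 211 CPM.

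Kruppel-like factors followed in 8 of 13 genes, with a median of 0.52. A CArG box lay in the windows of 0 of the 10 genes matched to the promoter table. Klf10, a TGF-beta early gene, rose by 2.71 ± 0.06, Klf7 by 1.89 ± 0.06 and Klf4 by 1.60 ± 0.06. The 1 that fell was Klf15, a glucocorticoid-induced metabolic regulator, from 40.5, 49.3 and 44.6 CPM to 12.6, 13.8 and 11.6 CPM (-1.82 ± 0.10, adjusted p = 6.19e-13).

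Feedback genes of MAP kinase signalling rose in 12 of 17 cases and fell in 4, with a median of 0.52. Apart from Errfi1, Dusp5, a nuclear ERK phosphatase, rose from 8.73, 8.60 and 9.04 CPM to 97, 98.2 and 93 CPM (3.45 ± 0.09). Dusp10, which acts on p38 and JNK, rose by 2.03 ± 0.07 and Dusp1 by 1.00 ± 0.06. Dusp7 (-0.93 ± 0.10), Spred1 (-0.45 ± 0.09), Spry1 (-0.42 ± 0.06) and Spred2 (-0.17 ± 0.06) fell; Dusp7, Spred1 and Spred2 were named after their values were seen, Spry1 overlaps a gene on the other strand, and Spred2 lost its call in 5 of 6 omissions of 1 library (adjusted p up to 0.104, without siprdx1+H2O2+FV library 3). Among 8 tested EGF family genes 2 ligands rose (25%) and 1 receptor fell (12.5%), beside 12.6% and 11% of all genes, with a median of 0.02. Ereg, epiregulin, had 5.34, 4.65 and 4.36 CPM without and 88.2, 83.5 and 94.2 CPM with fluvastatin (4.22 ± 0.09). Hbegf, heparin-binding EGF, rose by 3.92 ± 0.09, and the receptor gene Erbb2 fell by 0.73 ± 0.10 on the log2 scale.

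Actin and adhesion genes, many of them targets of serum response factor, rose together: 21 of 27 rose and 2 fell, with a median of 0.50. Srf itself had 45.9, 54.1 and 49 CPM without and 214, 235 and 206 CPM with fluvastatin (2.13 ± 0.09, adjusted p = 1.48e-14). Itga5, the fibronectin receptor subunit, rose from 121, 130 and 125 CPM to 591, 607 and 563 CPM (2.22 ± 0.05). Actb, beta-actin, went from 2641, 3171 and 2783 CPM to 5575, 6076 and 5248 CPM (0.98 ± 0.07). The groups of these genes were separate, as for 17.7% of all tested genes in the rising direction. Filamin C (Flnc, 1.31 ± 0.10), zyxin (Zyx, 1.24 ± 0.10), Filip1l (1.23 ± 0.06) and Tpm1 (0.99 ± 0.05) rose too. The 2 that fell were the coactivators of serum response factor, Mrtfa (-0.35 ± 0.08) and Mrtfb (-0.17 ± 0.06), the latter not in 4 of 6 omissions of 1 library (adjusted p up to 0.255, without siprdx1+H2O2+FV library 3). Vcl, vinculin, rose by 0.95 ± 0.05, with an antisense overlap with Ap3m1 that the counting may not separate.

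The CArG box lay in the promoter windows of 8 of the 26 actin and adhesion genes matched to RefSeq, in 25.7% of their windows against the 1.47% of all windows. Those 8 were Srf, Actg1, Vcl, Filip1l, Fhl1, Fhl2, Myl9 and Lima1. Fhl1 changed little, by 0.002 to 0.14 log2 units over the alternative analyses and omissions of 1 library. The list was itself drawn up around serum response factor and actin, so this share does not bear on fluvastatin. Srf has 2 boxes, 82 and 62 bases before its start at chr17:46556163-46556412 (- strand). Vcl has 1, at 227 bases before its start, in chr14:20929148-20929397 (+ strand). Capitals again mark the CArG boxes, in genes whose levels rose 4.39-fold and 1.94-fold.
Srf: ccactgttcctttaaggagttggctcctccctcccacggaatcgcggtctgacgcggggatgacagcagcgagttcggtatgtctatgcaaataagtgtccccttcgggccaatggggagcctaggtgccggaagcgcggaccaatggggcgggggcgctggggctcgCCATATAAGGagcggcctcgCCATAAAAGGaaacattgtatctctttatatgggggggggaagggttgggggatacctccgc
Vcl: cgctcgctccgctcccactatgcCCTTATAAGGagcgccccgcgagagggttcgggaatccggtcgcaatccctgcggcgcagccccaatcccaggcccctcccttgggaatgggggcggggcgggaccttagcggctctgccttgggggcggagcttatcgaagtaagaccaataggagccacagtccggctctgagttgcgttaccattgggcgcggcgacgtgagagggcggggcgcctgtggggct

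Smooth muscle genes rose in 8 of 11 cases, with a median of 0.65, and 0 of the 7 matched to the promoter table had a CArG box in the window. The 1 that fell was Synpo2 (-0.47 ± 0.14, named after its values were seen), which lost its call in 4 of 6 omissions of 1 library (adjusted p up to 0.114, without siprdx1+H2O2+FV library 2). Acta2, smooth muscle actin, had 510, 580 and 525 CPM without and 1212, 1206 and 1078 CPM with fluvastatin (1.11 ± 0.07). Cnn1, calponin, rose from 1.55, 3.07 and 2.16 CPM to 13.8, 13.3 and 13 CPM, and Lmod1, leiomodin, by 1.58 ± 0.07. The summed level of the list was 1499 to 1692 CPM without and 2688 to 2944 CPM with the drug. Whether the share of smooth muscle cells moved with it was not tested. Of 24 genes of YAP and TEAD, the factors of the Hippo pathway, 9 rose (37.5%) and 4 fell (16.7%), beside 12.6% and 11% of all genes. The falls numbered 8 with library size alone, and the median was -0.03. F3, tissue factor, had 121, 110 and 117 CPM without and 1188, 1167 and 1230 CPM with fluvastatin (3.36 ± 0.05, adjusted p = 6.89e-23). Nuak2, a kinase of actomyosin control, rose by 2.06 ± 0.07, Ccn1 by 1.16 ± 0.06 and Ccn2 by 0.89 ± 0.05, the last with an antisense overlap with Gm15270. Yap1 (-0.16 ± 0.05), Amotl1 (-0.32 ± 0.06), Amotl2 (-0.39 ± 0.07) and Ajuba (-0.21 ± 0.07) fell, the last 3 named after their values were seen. Yap1 lost its call in 4 of 6 omissions of 1 library (adjusted p up to 0.151, without siprdx1+H2O2 library 1) and Ajuba in all 6 (up to 0.15).

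Of 28 genes under NRF2, the factor that answers oxidants and electrophiles, 16 rose and 1 fell, with a median of 0.32. Txnrd1, thioredoxin reductase, had 334, 322 and 319 CPM without and 908, 932 and 934 CPM with fluvastatin (1.51 ± 0.04, adjusted p = 7.95e-18). Hmox1, heme oxygenase 1, rose from 714, 808 and 777 CPM to 1823, 1854 and 1817 CPM (1.26 ± 0.05). Srxn1, sulfiredoxin, which repairs overoxidized peroxiredoxins, went from 243, 223 and 234 CPM to 782, 757 and 779 CPM (1.73 ± 0.05). None overlapped between groups, like 17.7% of all tested genes in the rising direction. Osgin1 (1.88 ± 0.10), Gclc, the catalytic subunit of glutathione synthesis (1.42 ± 0.05), the cystine carrier Slc7a11 (0.88 ± 0.11) and Nqo1 (0.45 ± 0.07) also rose. Of the regulators, Nfe2l2, which encodes NRF2, rose by 0.34 ± 0.05, its competitor Bach1 rose by 0.85 ± 0.06, and Keap1, the adaptor for its degradation, fell by 0.28 ± 0.07 on the log2 scale.

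Of 26 genes of peroxiredoxins other than Prdx1, glutathione peroxidases, superoxide dismutases, catalase, thioredoxins, glutaredoxins and sestrins, 1 rose (3.85%) and 3 fell (11.5%), beside 12.6% and 11% of all genes, with a median of -0.02. The counts were 7 lower with library size alone, and 3 higher and 5 lower with GC and length offsets. Sesn2, a stress sensor of mTORC1 signalling, rose by 0.53 ± 0.10. Txnip (-0.81 ± 0.05), Sesn1 (-0.69 ± 0.06) and Gpx3, the extracellular glutathione peroxidase (-0.19 ± 0.05), fell. Of 5 peroxiredoxin genes 0 passed, with log2 fold changes from -0.09 to 0.16.

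Chaperone genes of the heat shock response rose in 13 of 23 cases and fell in 0, with a median of 0.24. Dnajb1, an HSP40 cochaperone, had 47.9, 46.8 and 43.5 CPM without and 271, 292 and 278 CPM with fluvastatin (2.60 ± 0.05, adjusted p = 1.50e-20). Hspa1b, an inducible HSP70, rose from 53.4, 69.2 and 64.9 CPM to 282, 315 and 274 CPM (2.21 ± 0.09). Its neighbour Hspa1a rose by 1.20 ± 0.08, but the transcripts are 99.2% identical and reads may be shared. Dnajb4 rose by 2.15 ± 0.10 and Hspb1, HSP27, which also has near copies, by 1.08 ± 0.07. The core of a heat shock element, GAANNTTC (its own reverse complement, so both strands are covered), was present in 6 of 18 matched chaperone genes and 23.1% of their windows, beside 6.69% of all windows. The list was drawn up as genes of the heat shock response, so this share does not bear on fluvastatin. Hspa1b carries 1 match, 104 bases before its start in chr17:34959239-34959488 (- strand), in capitals.
Hspa1b: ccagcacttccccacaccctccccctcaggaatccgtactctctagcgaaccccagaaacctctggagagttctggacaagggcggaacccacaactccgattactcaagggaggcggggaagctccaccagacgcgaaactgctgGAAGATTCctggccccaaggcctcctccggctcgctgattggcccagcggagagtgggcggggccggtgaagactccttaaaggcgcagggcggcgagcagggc

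Endoplasmic reticulum and integrated stress genes rose in 12 of 29 cases and fell in 0 (median 0.11). Chac1, a glutathione-degrading enzyme, rose from 5.34, 7.52 and 6.76 CPM to 21, 23.4 and 20.8 CPM (1.72 ± 0.14). Atf4, the main factor of that response, rose by 0.85 ± 0.05 and Hspa5, the chaperone BiP, by 0.49 ± 0.05. The 8 rises among 14 genes of the integrated stress response stood beside 4 among 15 chaperone and unfolded protein response genes.

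Inflammatory genes rose in the knockdown cultures. Of 26 tested NF-kappaB, cytokine, prostaglandin and adhesion genes 18 rose and 2 fell, with a median of 0.49. Ptgs2, cyclooxygenase 2, had 7.18, 5.19 and 5.30 CPM without and 73, 72.5 and 77.7 CPM with fluvastatin (3.67 ± 0.14, adjusted p = 1.30e-14). Lif, a cytokine of the IL-6 family, rose from 9.88, 9.26 and 8.43 CPM to 83.3, 83.7 and 80.8 CPM (3.17 ± 0.10). Nfkbiz, a nuclear cofactor of NF-kappaB, rose by 2.01 ± 0.08, Rel by 1.48 ± 0.09, Il6 by 2.66 ± 0.29 at no more than 6.10 CPM, and Tnf by 0.74 ± 0.08. The 2 that fell were Vcam1 (-0.24 ± 0.06) and Il33 (-0.66 ± 0.18), the latter named after its values were seen.

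Chemokine genes rose in 7 of 17 cases and fell in 0, with a median of 0.18. Cxcl1, a neutrophil attractant, had 7.08, 8.39 and 7.62 CPM without and 43, 37.1 and 39 CPM with fluvastatin (2.36 ± 0.10, adjusted p = 2.42e-14). Cxcl2, which acts on the same receptor, rose from 5.84, 5.86 and 6.48 CPM to 24.8, 23.3 and 26.1 CPM (2.03 ± 0.10). Ccl2, a monocyte attractant, rose from 165, 182 and 180 CPM to 414, 404 and 373 CPM (1.18 ± 0.08). Cxcl5 (2.13 ± 0.26), Cxcl10 (1.43 ± 0.12) and Ccl7 (1.18 ± 0.09) rose as well. Macrophages are one source of such transcripts. Of 17 macrophage markers 3 rose (17.6%) and 0 fell, beside 12.6% and 11% of all genes (median 0.09, below 0 with library size alone). The 3 were Cd14 (0.75 ± 0.06), Marco (0.25 ± 0.06) and Csf1r (0.14 ± 0.05). The call of Csf1r was lost in 4 of 6 omissions of 1 library (adjusted p up to 0.15, without siprdx1+H2O2 library 1). With library size alone 1 of the 17 markers rose. Their summed level was 8787 to 8984 CPM without and 9180 to 9637 CPM with fluvastatin, and its part in the inflammatory changes was not tested.

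Interferon-stimulated genes moved in both directions and by little. Of 37 tested 8 rose and 5 fell, beside 12.6% and 11% of all genes, and the median was 0.10. With library size alone 4 rose, 10 fell and the median was just under 0. Every omission of 1 library left 5 or 6 rises. They numbered 5 without siprdx1+H2O2 library 3 or siprdx1+H2O2+FV library 3. Rsad2, the antiviral enzyme viperin, had 16.1, 11 and 14.1 CPM without and 30.1, 28.8 and 29.2 CPM with fluvastatin (1.11 ± 0.11, adjusted p = 9.05e-08). Ifit1, an RNA-binding effector, rose from 27.8, 23.8 and 28.8 CPM to 37.1, 36.4 and 38.2 CPM (0.47 ± 0.09). Ifit3 had 44.9, 40.5 and 39.9 CPM without and 48.7, 47.4 and 51.3 CPM with it (0.23 ± 0.08, adjusted p = 0.0282). The rises of Ifit1 and Ifit3 were small but left the groups apart, as for 17.7% of all tested genes in the rising direction. Mx1 (0.83 ± 0.21), Oas2 (0.51 ± 0.08) and Isg15, a ubiquitin-like modifier (0.35 ± 0.10), rose, and Ifit2 (-0.50 ± 0.09), Stat2 (-0.33 ± 0.06), Irf8 (-0.27 ± 0.05) and Irf1 (-0.24 ± 0.08) were among those that fell. Ifit3 and Ifit3b are 97.8% identical, and Isg15 has a near copy, so their counts are uncertain. Of the 6 omissions of 1 library, 4 ended the call of Ifit3 (adjusted p up to 0.121, without siprdx1+H2O2 library 3), 1 that of Isg15 (0.0653, without siprdx1+H2O2 library 1) and 2 that of Irf1 (up to 0.172, without siprdx1+H2O2 library 2).

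In the control siRNA arm the same genes were mostly lower with the drug. With siNC, fluvastatin lowered 28 of the 37 genes and raised 0, with a median of -0.46. The interaction, that is, the fluvastatin effect in siprdx1 minus that in siNC, passed for 13 of the 37, all positive, where 0.463% of all tested genes had a positive interaction. Rsad2 fell in the control arm from 12.6, 14.8 and 11.1 CPM to 10, 9.01 and 7.89 CPM, and its interaction was 1.62 ± 0.17 (adjusted p = 4.07e-06). Ifit3 fell there from 36.4, 36 and 34.3 CPM to 16.8, 15.2 and 16.9 CPM (interaction 1.36 ± 0.11, adjusted p = 1.39e-07). Interactions of 1.69 ± 0.32 for Mx1, 1.09 ± 0.13 for Ifit1, 0.93 ± 0.15 for Isg15 and 0.50 ± 0.08 for Irf7 also passed. In all 13 the larger difference between the siRNA arms lay in the fluvastatin groups. The summed macrophage markers moved in the same sense, from 10201 to 10820 CPM down to 9000 to 9073 CPM with siNC while rising with siprdx1, and their part in the interferon gene result was not tested.

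**Figure D3:**
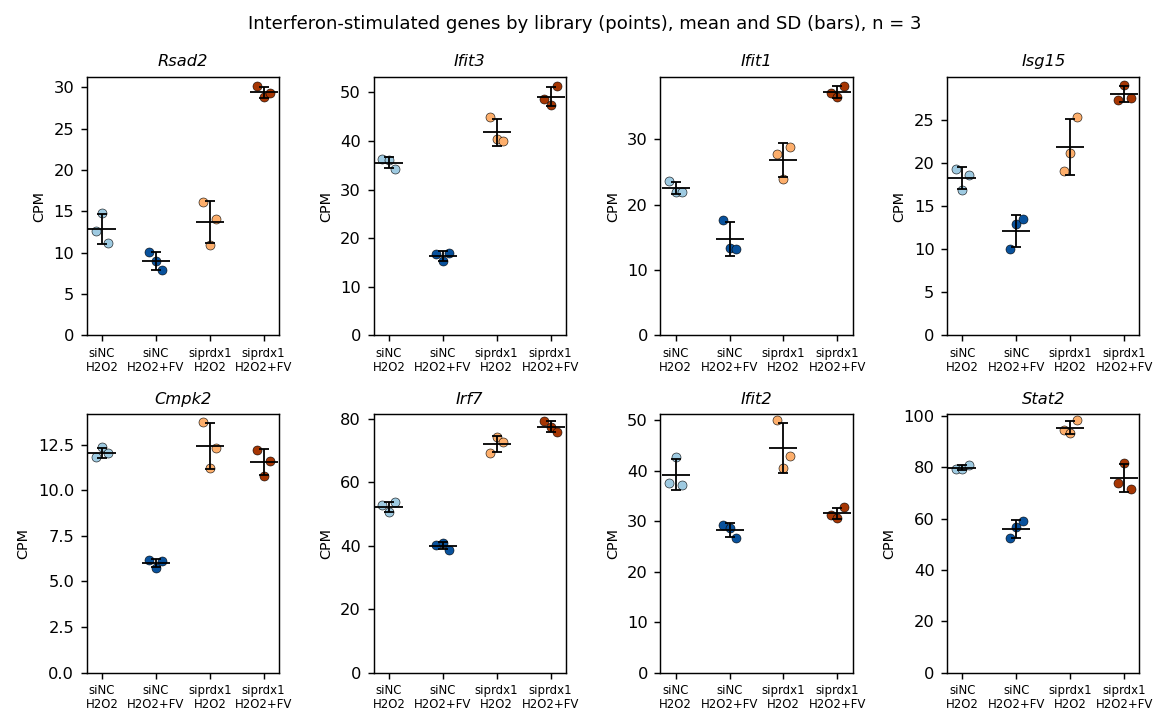
CPM of 8 interferon-stimulated genes in each of 3 libraries for the 4 groups with peroxide; lines give the mean and bars the SD. Rsad2 and Ifit3 are lower with fluvastatin in siNC and higher in siprdx1, whereas Ifit2 and Stat2 are lower in both.

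The interferon-stimulated response element, searched on both strands as GAAA, any 2 bases and GAAA again, was found in 9 of 28 matched genes of the list and in 26.5% of their windows, against 2.98% of all windows. The 3 shown belong to genes with a positive interaction: Rsad2 at chr12:26456453-26456702 (- strand), Ifit3 at chr19:34583279-34583528 (+ strand) and Isg15 at chr4:156200819-156201068 (- strand). Capitals mark the element, which occurs at 1 site in Rsad2, at 2 sites in Ifit3 and at 3 overlapping sites in Isg15. Stat2, which fell in both arms, has a match as well. The list was drawn up as interferon-stimulated genes, so the share of windows does not bear on fluvastatin.
Rsad2: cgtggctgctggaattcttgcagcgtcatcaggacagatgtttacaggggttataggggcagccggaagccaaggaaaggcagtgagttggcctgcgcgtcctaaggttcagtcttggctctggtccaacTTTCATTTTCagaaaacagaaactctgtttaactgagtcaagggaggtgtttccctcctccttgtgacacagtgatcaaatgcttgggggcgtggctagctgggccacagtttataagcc
Ifit3: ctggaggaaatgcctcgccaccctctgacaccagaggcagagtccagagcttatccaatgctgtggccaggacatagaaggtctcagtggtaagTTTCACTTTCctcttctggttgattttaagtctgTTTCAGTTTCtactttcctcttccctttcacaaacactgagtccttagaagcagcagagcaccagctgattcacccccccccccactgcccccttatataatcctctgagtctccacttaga
Isg15: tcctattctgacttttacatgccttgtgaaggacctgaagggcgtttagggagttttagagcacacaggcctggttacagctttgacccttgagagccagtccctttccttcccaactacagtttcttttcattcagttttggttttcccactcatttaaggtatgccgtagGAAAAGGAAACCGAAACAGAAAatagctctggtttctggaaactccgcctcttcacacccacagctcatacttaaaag

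Steroid synthesis moved at its entry. Star, which carries cholesterol into mitochondria, had 171, 171 and 177 CPM without and 455, 449 and 469 CPM with fluvastatin, a rise of 1.40 ± 0.05 (adjusted p = 8.41e-16). Fdx1, the electron donor of the side-chain cleavage enzyme, rose from 107, 90.1 and 93.5 CPM to 169, 192 and 187 CPM (0.92 ± 0.07). Cyp11a1, that enzyme, rose by 0.14 ± 0.04 (adjusted p = 0.0254, and 0.112 without siprdx1+H2O2+FV library 1) and Por, the microsomal P450 reductase, by 0.33 ± 0.07. Some receptors and lineage factors went the other way. Nr2f2, a nuclear receptor of fetal Leydig and stromal progenitors, fell from 149, 133 and 127 CPM to 44.6, 46.2 and 48.4 CPM (-1.56 ± 0.07, adjusted p = 6.78e-14).

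Pdgfra, the PDGF receptor of interstitial cells, fell by 0.60 ± 0.04 on the log2 scale and Nr5a1, the steroidogenic factor SF-1, by 0.43 ± 0.07. In all, 4 of 19 genes of steroid synthesis and Leydig identity rose (21.1%) and 5 fell (26.3%), beside 12.6% and 11% of all genes. Their median was -0.04. The median was 0.06 without siprdx1+H2O2 library 2, 0.008 without siprdx1+H2O2 library 3 and 0.03 without siprdx1+H2O2+FV library 1. Tcf21, a stromal factor named after its values were seen, fell from 252, 275 and 269 CPM to 129, 136 and 128 CPM (-1.02 ± 0.07). Of 9 fibroblast markers Pdgfra, Pdgfrb (-0.36 ± 0.06) and Col3a1 (-0.20 ± 0.05) fell and 0 rose (median -0.09), their sum going from 9691 to 11016 CPM to 8641 to 9363 CPM. Of 8 tested Sertoli cell markers 2 rose and 2 fell (25% each way, beside 12.6% and 11% of all genes, median 0.12). Sox9 (1.50 ± 0.08) and Amh (1.43 ± 0.47, at under 1 CPM) were higher, and Cldn11 (-0.38 ± 0.07) and Wt1 (-0.42 ± 0.10) lower. Of 6 endothelial markers Vwf rose (0.47 ± 0.14) and Cdh5 fell (-0.24 ± 0.06), 16.7% each way, with a median of -0.24. The calls of Amh (adjusted p up to 0.139, without siprdx1+H2O2+FV library 1) and Vwf (up to 0.144, without siprdx1+H2O2+FV library 2) were each lost in 3 of 6 omissions of 1 library. Of 2 tested germ cell markers Kit, which Leydig cells also express, fell (-0.25 ± 0.05; median -0.14), and 0 erythrocyte markers were abundant enough to test. Whether the make-up of the cultures changed was not tested.

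**Figure D4:**
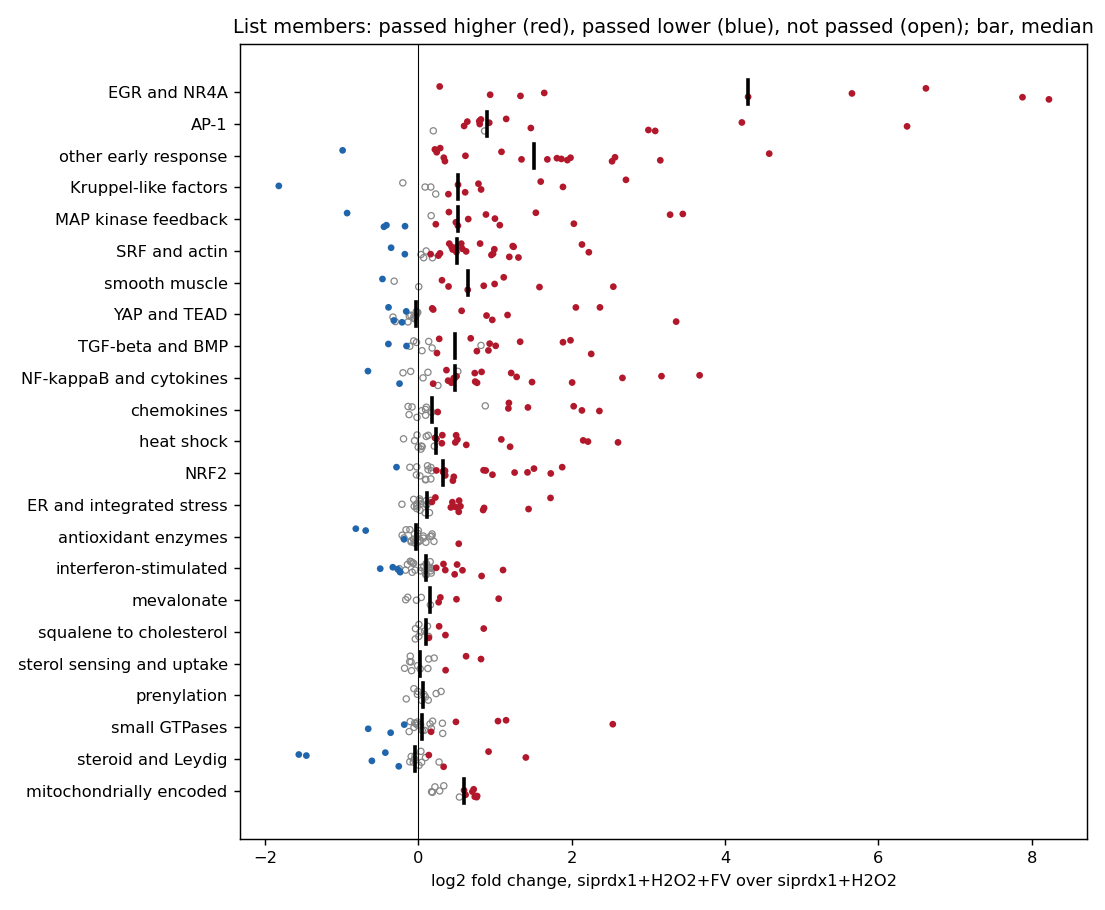
Each point is 1 member of a gene list, at its log2 fold change with fluvastatin in siprdx1; red points passed higher, blue passed lower, open did not pass, and the bar is the list's median. The EGR and NR4A genes have the highest median, 4.30, and the 10 prenylation genes are all open.

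Of 30 matrix genes 4 rose and 4 fell (13.3% each way, beside 12.6% and 11% of all genes), with a median of -0.07 (0.001 without siprdx1+H2O2 library 2). The falls numbered 13 with library size alone. Thbs1 rose by 2.46 ± 0.04, Tnc, tenascin C, by 0.83 ± 0.12, Postn, periostin, by 0.42 ± 0.10 and Lox, which crosslinks collagen, by 0.26 ± 0.06. Thbs2 (-0.32 ± 0.05), Col6a3 (-0.22 ± 0.06), Fbn1 (-0.21 ± 0.04) and Col3a1 fell, Col6a3 not without siprdx1+H2O2 library 2 (adjusted p = 0.0507). Proteases and their inhibitors gave 5 rises (23.8%) and 4 falls (19%) among 21, beside 12.6% and 11% of all genes. The falls numbered 8 with library size alone, and the median was -0.06 (0.03 without siprdx1+H2O2 library 2). Plaur, the urokinase receptor, rose from 38.5, 40.9 and 43.3 CPM to 113, 112 and 111 CPM (1.45 ± 0.06), Adamts1 rose by 0.89 ± 0.04, and Adamts15, an aggrecan-cleaving protease, fell from 7.08, 6.52 and 5.58 CPM to 2.12, 1.42 and 1.74 CPM (-1.85 ± 0.18). Timp3 (0.63 ± 0.06, with an antisense overlap) and Timp1 (0.20 ± 0.05), inhibitors of metalloproteases, rose, and Adamts5 (-0.53 ± 0.05), Mmp11 (-0.31 ± 0.06) and Mmp19 (-0.21 ± 0.05, named after its values were seen, with an antisense overlap) fell. Genes of TGF-beta and BMP signalling rose in 11 of 20 cases and fell in 2 (median 0.48). Id4, an inhibitor of basic helix-loop-helix factors, rose by 2.26 ± 0.14, and the feedback inhibitors Skil by 1.99 ± 0.09 and Smad7 by 1.89 ± 0.08. Tgfbr2 (-0.15 ± 0.04) and Bmp4 (-0.39 ± 0.06) fell; these 2 were named after their values were seen, and Tgfbr2 had an adjusted p of 0.0662 without siprdx1+H2O2+FV library 3.

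Targets of p53 rose in 8 of 20 cases (40%) and fell in 3 (15%), beside 12.6% and 11% of all genes, with a median of 0.01. There were 7 falls and a median of -0.10 with library size alone, 5 falls and a median of 0.09 without siprdx1+H2O2 library 2, and 6 falls with GC and length offsets. Plk3, a stress kinase, rose from 16.8, 14.3 and 14.4 CPM to 134, 143 and 128 CPM (3.16 ± 0.09), Plk2 by 2.33 ± 0.06, Cdkn1a, which encodes p21, by 0.80 ± 0.06 and Mdm2 by 0.77 ± 0.06. Sesn1, Trp53inp1 (-0.68 ± 0.12) and Ei24 (-0.21 ± 0.06) fell, the last 2 named after their values were seen. Ei24 lost its call in 2 of 6 omissions of 1 library (adjusted p up to 0.0792, without siprdx1+H2O2 library 1). Of 18 apoptosis genes 2 rose (11.1%) and 5 fell (27.8%), beside 12.6% and 11% of all genes (median -0.20). The falls numbered 9 without siprdx1+H2O2 library 2, 8 with no filter, 9 with GC and length offsets and 10 with library size alone. The BH3-only gene Bmf fell from 20, 20.8 and 20.9 CPM to 7.89, 7.80 and 7.72 CPM (-1.40 ± 0.09), whereas Bcl2l11, which encodes BIM, rose by 1.02 ± 0.09. Mcl1, a survival gene, rose by 0.43 ± 0.08, and Casp9 (-0.49 ± 0.08), Birc3 (-0.28 ± 0.07), Birc2 (-0.26 ± 0.08) and Bcl2l1 (-0.23 ± 0.06) fell, Birc2 not in 3 of 6 omissions of 1 library (adjusted p up to 0.207, without siprdx1+H2O2 library 1).

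Of 23 glycolysis and hypoxia genes 8 rose and 0 fell (median 0.10), led by Hk2, the hexokinase that traps glucose in the cell, from 97.3, 98.5 and 94.5 CPM to 411, 416 and 395 CPM (2.07 ± 0.05). The glucose transporter Slc2a1 rose by 1.82 ± 0.08 and Vegfa by 1.20 ± 0.07. Mitochondrially encoded transcripts rose in 7 of 13 cases and fell in 0 (median 0.60, or 0.38 with GC and length offsets), for example mt-Cytb by 0.77 ± 0.07. Their share of counts was 0.988% to 1.24% without and 1.27% to 1.48% with fluvastatin. Of 30 nuclear-encoded respiratory chain genes 0 passed, beside 23.6% of all genes, and their median was 0.02 (-0.08 with library size alone).

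Of 38 cell cycle genes 7 rose (18.4%) and 2 fell (5.26%), beside 12.6% and 11% of all genes, with a median of 0.03. Scaled by library size alone, 9 fell and the median was -0.07. Mki67, the proliferation marker Ki-67, had 90.2, 90.6 and 90.8 CPM without and 113, 111 and 117 CPM with fluvastatin (0.33 ± 0.06). The replication genes Cdt1 (0.62 ± 0.11), Rrm2 (0.36 ± 0.06) and Pcna (0.36 ± 0.06, with a near-identical pseudogene) and the centromere genes Cenpf (0.64 ± 0.12) and Cenpe (0.53 ± 0.11) rose as well. Ccne2, cyclin E2, named after its values were seen, rose by 0.42 ± 0.15, but its groups overlapped and the call was lost in 4 of 6 omissions of 1 library (adjusted p up to 0.185, without siprdx1+H2O2+FV library 3). The D-type cyclins Ccnd1 (-0.18 ± 0.05) and Ccnd2 (-0.13 ± 0.05, named after its values were seen) fell.

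Of 25 lysosome and autophagy genes 2 rose and 2 fell (8% each way, beside 12.6% and 11% of all genes, median -0.01). With library size alone 10 fell. Of 21 cyclic AMP pathway genes 1 rose (4.76%) and 2 fell (9.52%), with a median of 0.03, or 5 falls and -0.08 with library size alone. The falls were Gabarapl1 (-0.16 ± 0.05) and Wipi1 (-0.18 ± 0.05) of autophagy, and Crtc3 (-0.36 ± 0.07) and Adcy6 (-0.20 ± 0.06) of cyclic AMP signalling. Pde4b, a cyclic AMP phosphodiesterase, rose by 1.47 ± 0.14, and Map1lc3a (0.38 ± 0.10) and Becn1 (0.18 ± 0.05) rose among autophagy genes. Gabarapl1, Becn1 and Ccnd1 each overlap a gene on the other strand. Leaving out 1 library at a time ended the calls of Ccnd2 (adjusted p up to 0.136, lost without each of the 6), and, in 2 of 6 cases each, of Ccnd1 (up to 0.0634, without siprdx1+H2O2 library 3), Gabarapl1 (up to 0.0558, without siprdx1+H2O2+FV library 2), and Adcy6 (up to 0.095) and Becn1 (up to 0.0903), both without siprdx1+H2O2+FV library 3.

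Among genes averaging at least 1 CPM the 15 largest falls ran from Efna1 to Ccng2. Efna1, an ephrin ligand, had 4.19, 5.77 and 3.18 CPM without and 1.17, 0.918 and 0.622 CPM with fluvastatin (-2.23 ± 0.26, adjusted p = 5.42e-07). Prickle1, a planar polarity gene, fell from 115, 114 and 111 CPM to 35.8, 40.7 and 37.6 CPM (-1.57 ± 0.06), and Ccng2, an atypical cyclin, from 59.6, 50.3 and 50 CPM to 19.7, 19.2 and 16.2 CPM (-1.53 ± 0.09). Ppp1r3c, a glycogen-targeting subunit, fell by 2.09 ± 0.25 on the log2 scale and Trim63, a muscle ubiquitin ligase, by 2.05 ± 0.29. The zinc finger genes Zfp108 (-2.05 ± 0.28), Zkscan4 (-2.02 ± 0.22) and Zfp493 (-1.65 ± 0.31) were among the 15. A family count made after these values were seen gave 145 falls and 70 rises among 419 tested Zfp, Zkscan, Zscan and Zbtb genes, with a median of -0.17. Over all tested genes 11% fell and 12.6% rose.

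Across genes, most of the response to fluvastatin was shared with the control siRNA arm, whose libraries are different ones. There, 4090 genes passed (24.9%), 2226 higher (13.5%) and 1864 lower (11.3%). The same direction in both arms was found for 2498 genes, 64.4% of the siprdx1 calls and 61.1% of the siNC calls, and opposite directions for 22. Of the 681 siprdx1 calls of at least 1 log2 unit, 658 had the same sign in siNC and 495 also passed there. Pearson's r of the fold changes over the 16432 genes was 0.72 and Spearman's rank correlation 0.57, as a description, since genes are not replicates. Star and Hmox1 rose with siNC by 1.34 ± 0.05 and 1.26 ± 0.05.

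A difference between the arms was called for 107 genes (0.651%), 76 with a more positive effect in siprdx1 and 31 (0.189%) with a more negative one. Among the 76, immediate early genes were many: 3 of the 9 EGR and NR4A genes, 5 of the 14 AP-1 genes and 7 of the 18 other early genes passed, all positive. Arc (1.87 ± 0.11, adjusted p = 7.43e-10), Fosb (1.57 ± 0.11), Fos (1.25 ± 0.09, adjusted p = 1.04e-08), Plk2 (1.13 ± 0.08), Nr4a1 (1.07 ± 0.10), Btg2 (1.06 ± 0.06, adjusted p = 1.47e-10), Jun (0.97 ± 0.09) and Egr1 (0.85 ± 0.08) were among the 76. For the 15 genes of these 3 early lists the larger difference between the arms lay in the groups without fluvastatin. Btg2, for example, had 314, 317 and 309 CPM in siNC+H2O2 against 147, 150 and 156 CPM in siprdx1+H2O2, but 877, 895 and 891 CPM in siNC+H2O2+FV against 887, 903 and 890 CPM in siprdx1+H2O2+FV. Fos rose with fluvastatin in siprdx1 and fell in siNC, from 261, 246 and 260 CPM to 193, 210 and 211 CPM (-0.32 ± 0.06).

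Outside the early genes, Cxcl2 (1.41 ± 0.13), Cxcl1 (1.04 ± 0.15), Dnajb1 (0.72 ± 0.07), Tnf (0.64 ± 0.11) and Rhob (0.52 ± 0.10, adjusted p = 0.00944) had positive interactions. The effect was more negative in siprdx1 for Fbn2 (-0.81 ± 0.16), Pde3a (-0.64 ± 0.11), Slc38a2 (-0.52 ± 0.09), Ermp1 (-0.48 ± 0.09), Lox (-0.43 ± 0.09), Fbn1 (-0.34 ± 0.06) and Svep1 (-0.31 ± 0.06). Fbn1, the microfibril protein fibrillin 1, had 1005, 977 and 965 CPM without and 839, 867 and 849 CPM with fluvastatin in siprdx1, but 1015, 1038 and 1032 CPM and 1129, 1129 and 1123 CPM in siNC; it overlaps another gene on the other strand. Fbn2, Fbn1, Lox and Svep1 encode matrix proteins or their crosslinking enzyme. The interaction of Lox was lost in 8 of 12 omissions of 1 library (adjusted p up to 0.104, without siNC+H2O2+FV library 2). Those of Fbn2 (up to 0.0532, without siprdx1+H2O2+FV library 3) and Svep1 (up to 0.0611, without siNC+H2O2 library 1) were each lost in 2 of 12. The number of such differences depended on the analysis: leaving out 1 library at a time gave 55 to 136 genes, fewest without siprdx1+H2O2+FV library 1, and DESeq2 gave 206.

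**Figure D5:**
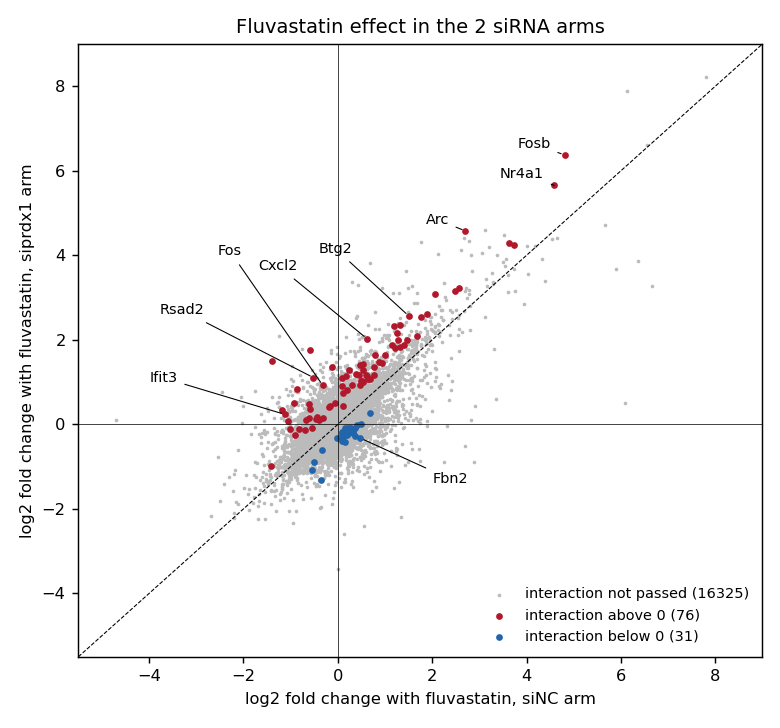
Log2 fold change with fluvastatin in siNC (horizontal) and in siprdx1 (vertical) for 16432 genes, with the dashed line at equal effects; red and blue points are the 76 genes with a positive and the 31 with a negative interaction. Fos and Rsad2 lie above 0 in siprdx1 and below 0 in siNC.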

How the data were processed

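RNA of 18 libraries of primary mouse cultures (3 per group) was sequenced from stranded poly(A) libraries, per the labels' protocols. The authors aligned reads to mm10 with HISAT2 and counted them per gene with HTSeq, per the submitters' processing notes; versions, annotation and strand setting are not given in the sources used here. The deposited values are raw counts for 55487 genes, 15201530 to 23898435 counts per library, with no columns left unused. Genes passing edgeR's filterByExpr (16432) were fitted with edgeR 4.0.16 (R 4.3.3): TMM, 6 group means over all 18 libraries, robust quasi-likelihood F tests with 12 residual degrees of freedom, and Benjamini-Hochberg adjustment over all tested genes at 0.05. The SE was the absolute log2 fold change over the square root of F. The interaction was the fluvastatin effect in siprdx1 minus that in siNC. The common biological coefficient of variation was 7.01%, and pairs of replicates differed beyond sampling noise (chi-square of 2.64 to 15.8 for each degree of freedom). Gene coordinates and transcripts came from GENCODE vM21 (GRCm38), where 55227 identifiers matched, and promoters from RefSeq. Near-identical copies were transcripts with at least 95% identity over at least 200 bases in blastn 2.17.0+.

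Members and gene lists were chosen with earlier results of these data known. Named genes were the 15 largest rises and falls among passed genes averaging at least 1 CPM without overlap, up to 4 members of each role of a list by smallest p, all members of 11 lists, the 6 smallest interaction p-values in each direction, and Prdx1; others are marked in the text, and some genes that this rule names are not reported here. The test was checked on simulated counts with few changed genes and with rises and falls in balance. Such a check cannot speak to the choice of scaling. Knockdown libraries 1 and 2 correlated best with their own number across the groups, but library 3 did not. Pairing by number is therefore uncertain, and the main fit has no block. Alternatives were RLE and library-size scaling, no filter, a replicate block, only the compared groups, limma 3.58.1 voom, DESeq2 1.42.0, a fold threshold, GC and length offsets, and leaving out each library.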

Additional observations from a re-analysis of the deposited data

Results flagged for a closer look

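The difference between the fluvastatin effects with siprdx1 and with siNC was itself tested, as an interaction term in edgeR, and passed for 107 genes (adjusted p below 0.05). This count was 60 without siNC+H2O2 library 1, 69 without siNC+H2O2 library 3, 66 without siNC+H2O2+FV library 1, 61 without siNC+H2O2+FV library 2, 66 without siprdx1+H2O2 library 3, and 55, 65 and 65 without siprdx1+H2O2+FV libraries 1, 2 and 3.

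Interferon-stimulated genes passed this test of the difference with interaction log2 fold changes of 1.62 for Rsad2, 1.36 for Ifit3, 1.69 for Mx1, 1.09 for Ifit1, 0.93 for Isg15 and 0.50 for Irf7. Early response genes passed it with 1.87 for Arc, 1.57 for Fosb, 1.25 for Fos, 1.13 for Plk2, 1.07 for Nr4a1, 1.06 for Btg2, 0.97 for Jun and 0.85 for Egr1. Other positive values were 1.41 for Cxcl2, 1.04 for Cxcl1, 0.72 for Dnajb1, 0.64 for Tnf and 0.52 for Rhob. A more negative effect with siprdx1 was tested and passed for Fbn2 (-0.81), Pde3a (-0.64), Slc38a2 (-0.52), Ermp1 (-0.48), Lox (-0.43), Fbn1 (-0.34) and Svep1 (-0.31). Svep1, Fbn2 and Lox lost the call when some single libraries were left out.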

How the results depend on the processing

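The number of genes changed by fluvastatin in the knockdown cultures stayed within 1.5 times of 3876 under every alternative except the fold threshold, whereas the interaction count did not. Leaving out 1 library at a time gave 3117 to 3653 genes with siprdx1 (1710 to 2097 higher, 1373 to 1682 lower), 3096 to 3983 with siNC (1733 to 2226 and 1344 to 1757) and 55 to 136 interactions (49 to 83 positive, 6 to 53 negative). Library size alone gave 3634 lower genes with siprdx1, and 1474 higher and 3835 lower with siNC. The interaction gave 281 genes with no filter (168 positive, 113 negative), 206 with DESeq2 (120 and 86), 337 with GC and length offsets (245 and 92), and 14 negative ones with the compared groups alone. Requiring a log2 change of at least 1 left 681 genes with siprdx1 (521 and 160), 585 with siNC (406 and 179) and 20 interactions (20 and 0). The cause of these differences was not tested.

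Same-numbered knockdown libraries had correlated deviations of 0.119, 0.232 and -0.012, so their numbers were not taken as pairs. With the replicate block 3971 genes passed with siprdx1, 4267 with siNC and 129 interactions, and with offsets and the block together 432 interactions (303 positive, 129 negative). In siNC every library correlated best with its own number, and in siprdx1 library 3 did not.

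With library size alone the sign turned for Prdx1 (-0.0525) and Lyz2 (-0.0522), and for the medians of sterol enzymes (-0.000469), prenylation (-0.0424), small GTPases (-0.0507), interferon-stimulated (-0.00300), cyclic AMP (-0.0754), cell cycle (-0.0716), respiratory chain (-0.0795) and macrophage genes (-0.0129). The medians of sterol sensing and uptake (-0.0773) and p53 targets (-0.0969) turned there too, as did that of antioxidant genes with GC and length offsets (0.00259). The respiratory chain median was also -0.0101 with GC and length offsets and -0.00879 with offsets and block. Leaving out 1 library at a time took Col1a1 from -0.181 to 0.0113 and Prdx1 from -0.00383 to 0.127. It took the medians of matrix genes from -0.0878 to 0.00125, protease genes from -0.0782 to 0.0299, cell cycle genes from -0.00562 to 0.0309 and respiratory chain genes from -0.0210 to 0.0259. The turns came without siprdx1+H2O2 library 2 for the first 4 and library 1 for the last 2. Other medians that crossed 0 ranged from -0.0599 to 0.0611 (steroid synthesis and Leydig identity), -0.0114 to 0.0949 (sterol sensing), -0.115 to 0.0538 (EGF family) and -0.0353 to 0.000168 (lysosome and autophagy). Prdx1, Lyz2 and Col1a1 had not passed, and the cause was not tested. Of 221 named genes that passed with siprdx1, 36 lost the call when some single library was left out, and of 26 named interactions 3 did. Genes at a few counts are limited by depth.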
